A study of Homo sapiens with 9 samples.

Results

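FGF ligands and their receptors were followed as 1 set of 8 genes in LX2 cells after knockdown of YAP or of TAZ. The set holds the ligands FGF1, FGF2, FGF5 and FGF7 and the receptors FGFR1, FGFR2, FGFR3 and FGFR4. They are given by name, with no measured value in the rule, and were matched by symbol to the gene identifiers of the count tables, which list 36601 genes. All 8 were found, 7 of them had a read in at least 1 library, and those 7 passed the filter on low counts that left 15560 genes for testing.

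LX2 is an immortalised human hepatic stellate cell line. The cells were kept in serum-containing medium and transfected with siRNA at 20 nM for 7 days, and every group received a transfection. The siNT group had non-targeting siRNA, the siYAP group siRNA against YAP, encoded by YAP1, and the siTAZ group siRNA against TAZ, encoded by WWTR1. Each group had 3 libraries, which the series describes as biological replicates, and all 9 come from 1 cell line with 1 dose and 1 time point, so the spread below is that between cultures of LX2.

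YAP and TAZ are transcriptional co-activators that bind DNA through TEAD factors. FGFs are signalling proteins that bind, together with heparan sulfate, to receptor tyrosine kinases at the cell surface. The activated receptor engages the adaptor FRS2 and, through GRB2 and SOS, the RAS and ERK kinases, and ERK in turn induces inhibitors of its own pathway such as the Sprouty, SPRED and DUSP families. Hepatic stellate cells store vitamin A in the healthy liver and become matrix-producing myofibroblasts after injury, and FGF2 is a known mitogen for them.

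The libraries held 16498508 to 18752805 counts in genes, so that 1 count corresponded to 0.0522 to 0.0591 CPM (counts scaled to the size of the library). Correlations of log2 CPM over genes ran from 0.988 to 0.991 within groups, and no library stood apart from its group. YAP1 was at 209 ± 4.11 CPM in siNT and 26.3 ± 1.49 CPM in siYAP, and WWTR1 at 62.0 ± 5.50 CPM in siNT and 9.53 ± 0.917 CPM in siTAZ (SD, n = 3). The other paralog also moved: YAP1 was at 170.0 ± 8.01 CPM in siTAZ and WWTR1 at 75.8 ± 0.522 CPM in siYAP. Of 13 stellate cell and myofibroblast markers, LRAT, the enzyme that stores vitamin A as retinyl ester, had no read in any library, and the summed level of the list was 6708 to 6826 CPM in siNT, 3858 to 3919 CPM in siYAP and 10159 to 10328 CPM in siTAZ. Most of that sum is the collagens COL1A1 and COL3A1, at 4168 and 1147 CPM in siNT and 2046 and 733 CPM in siYAP, and it does not stand for the list: of 11 tested markers 4 rose after YAP knockdown (COL1A2, ACTA2, RELN and LUM) and 6 fell. The summed level was 2.01 to 2.09 CPM in siNT, 13.0 to 16.1 CPM in siYAP and 1.14 to 2.19 CPM in siTAZ for 8 hepatocyte markers, with TTR at 0 in all libraries. SERPINA1 alone carried it, at 1.89 CPM in siNT and 14.7 CPM in siYAP, and the other 7 markers had means of at most 0.125 CPM in every group. In siNT, siYAP and siTAZ the summed level was 52.3 to 55.2, 84.2 to 88.0 and 71.1 to 74.2 CPM for 7 epithelial markers. Most of that sum is SOX9, at 49.1, 80.0 and 68.4 CPM. For 7 endothelial markers, with LYVE1 at 0, the summed level was 13.2 to 16.2, 12.6 to 16.3 and 7.85 to 9.06 CPM. That sum hides opposite moves after YAP knockdown, where 2 of 5 tested markers rose and 3 fell. PECAM1 went from 0.519 to 6.39 CPM and CDH5 from 5.21 to 0.364 CPM. For 7 macrophage and leukocyte markers the summed level was 34.2 to 37.7, 126 to 131 and 22.6 to 24.8 CPM. Most of that sum is the lysosomal protein CD68 (22.3 CPM in siNT, 114.7 CPM in siYAP). Of 4 tested markers of this list 2 rose after YAP knockdown, CD68 and CSF1R (0.789 to 2.74 CPM). The leukocyte marker PTPRC fell, from 2.60 to 0.147 CPM, and CD14 was not called. The part of these marker levels in the results below was not tested.

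After YAP knockdown FGF1, FGF2, FGF5, FGFR3 and FGFR4 fell and FGFR1 rose, so that 6 of the 7 tested members passed the test. After TAZ knockdown FGF5, FGF7 and FGFR4 fell, 3 of 7, and no member rose, also at an unadjusted p under 0.05 or with DESeq2. A gene was called changed when its Benjamini-Hochberg adjusted p from edgeR's quasi-likelihood test over all 15560 genes was under 0.05. By this rule 67.1% of all tested genes were called after YAP knockdown (33.8% higher, 33.4% lower) and 34.6% after TAZ knockdown (16.4% higher, 18.2% lower), so the members' counts alone do not set them apart from other genes. The median log2 fold change of the 7 members was -0.68 after YAP knockdown and -0.16 after TAZ knockdown, beside medians of 0.02 and 0.01 over all tested genes. A called change of at least 2-fold was found for 3 of the 7 members after YAP knockdown, where 19.8% of tested genes had one, and for 2 of the 7 after TAZ knockdown, where 2.97% had one. The latter 2 were FGF5 and FGF7, and FGF7 had only 2 to 8 counts per siTAZ library. The TAZ calls of FGF7 and FGFR4 were lost under some of the alternatives given below, and that of FGF5 under none. The libraries of siYAP and siNT did not overlap for 6 of the 7 members (70.5% of tested genes), and those of siTAZ and siNT for 4 of the 7 (44.6%). Both comparisons use the same siNT libraries.

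**Figure D1:**
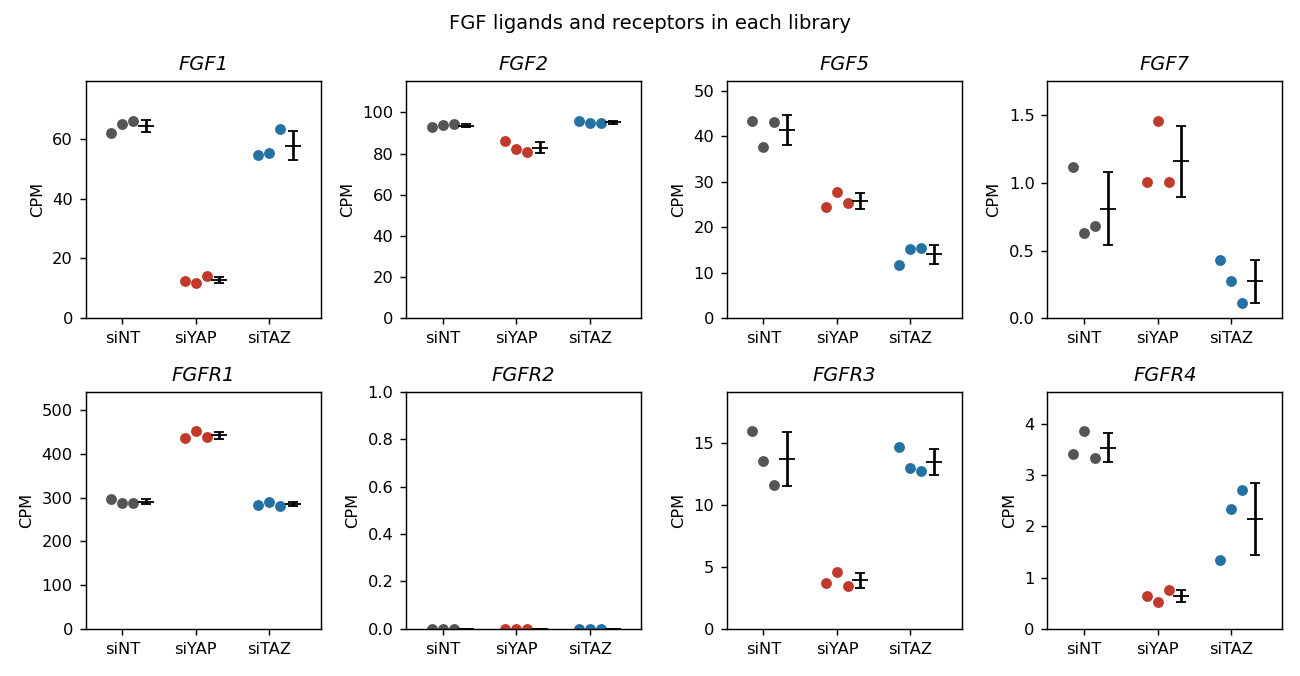
Level of each FGF ligand and receptor in every library, in CPM on the vertical axis, with siNT, siYAP and siTAZ on the horizontal axis. Points are single libraries and the bars beside them the mean ± SD of 3 libraries. FGF1, FGFR3 and FGFR4 are lowest in siYAP, FGF5 and FGF7 in siTAZ, FGFR1 is highest in siYAP, and FGFR2 is at 0 in all 9 libraries.

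FGF1, acidic FGF, binds all receptors of the family and lacks a classical secretion signal. The gene (ENSG00000113578) lies at chr5:142592178-142698070 on the minus strand of GRCh38. FGF1 was at 62.0, 64.8 and 66.1 CPM in the 3 siNT libraries, at 12.6, 11.8 and 14.0 CPM in siYAP and at 54.5, 55.4 and 63.2 CPM in siTAZ. The siYAP libraries all lay far below the other 6, whereas siTAZ and siNT overlapped. FGF1 fell 5.03-fold after YAP knockdown (log2 fold change -2.33, SE 0.08, adjusted p = 4.35e-36). After TAZ knockdown its log2 fold change was -0.16 (SE 0.07, 95% interval -0.29 to -0.02, adjusted p = 0.0581), which did not pass the test. This call lay close to the threshold: the adjusted p was 0.0129 without siTAZ replicate 3, 0.0482 without siYAP replicate 1 and 0.247 without siTAZ replicate 1. In bulk RNA, fewer cells with a transcript and less of it per cell cannot be told apart. The antisense gene SPRY4-AS1 spans part of FGF1 on the opposite strand and shares no exon base with it; it had 14, 8 and 2 counts in siNT, 39, 30 and 37 in siYAP and 7, 9 and 11 in siTAZ.

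FGF5, a ligand best known for ending the growth phase of the hair cycle, was the one ligand that passed the test after both knockdowns. It lies at chr4:80266599-80336680 on the plus strand (ENSG00000138675). Its level was 43.4, 37.7 and 43.0 CPM in siNT, 24.4, 27.8 and 25.3 CPM in siYAP and 11.6, 15.1 and 15.4 CPM in siTAZ. The 3 groups did not overlap, with siYAP between the other 2. FGF5 fell 1.60-fold after YAP knockdown (log2 fold change -0.68, SE 0.09, adjusted p = 3.83e-10) and 2.95-fold after TAZ knockdown (log2 fold change -1.56, SE 0.09, adjusted p = 3.30e-22). The difference between both knockdowns was itself called: FGF5 was 1.84-fold lower in siTAZ than in siYAP (log2 difference -0.88, SE 0.10, adjusted p = 3.20e-12). CFAP299, which follows it on the same strand, shares 2.27% of FGF5's exon bases and had 0 to 9 counts per library.

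YAP and TAZ reach DNA through TEAD factors, often beside AP-1, so promoters were searched for the TEAD core GGAATG on both strands (CATTCC on the other) and the AP-1 motif TGANTCA, both in capitals below. The windows are RefSeq's for GRCh38.p14, 250 bases before to 50 after an annotated start, in the direction of the gene. FGF1 has 4 such windows, of which start 4 (chr5:142644190-142644489) is shown because it held 2 GGAATG and 1 TGANTCA. The other FGF1 windows (starts 1, 2 and 3) held neither motif, nor did any window of FGF2, FGF5 or FGF7. FGFR2, which had no read in any library, held 1 GGAATG in start 3 and 1 in start 5. FGF5 start 1 (chr4:80266338-80266637) is shown as the case without a match, for the ligand that was called after both knockdowns.
FGF1 start 4: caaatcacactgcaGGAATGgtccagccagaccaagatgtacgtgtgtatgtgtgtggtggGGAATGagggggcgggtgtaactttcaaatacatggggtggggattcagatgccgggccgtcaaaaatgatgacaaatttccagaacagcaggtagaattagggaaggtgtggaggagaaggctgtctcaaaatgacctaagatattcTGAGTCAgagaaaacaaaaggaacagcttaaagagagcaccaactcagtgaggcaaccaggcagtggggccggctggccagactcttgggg
FGF5 start 1: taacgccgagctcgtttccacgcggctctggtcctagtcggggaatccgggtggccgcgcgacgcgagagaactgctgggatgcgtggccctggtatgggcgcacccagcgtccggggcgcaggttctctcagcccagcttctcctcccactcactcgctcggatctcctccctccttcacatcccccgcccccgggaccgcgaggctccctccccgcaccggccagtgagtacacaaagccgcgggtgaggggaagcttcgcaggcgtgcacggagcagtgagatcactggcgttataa
Of all 35116 windows of this length, 14.0% held GGAATG, 7.71% held TGANTCA, 1.37% held at least 2 GGAATG and 1.45% held both motifs. Of the 16 windows reported for 7 members, 4 held GGAATG and 1 held TGANTCA. The windows of the remaining member, named below, are not reported here. Gene-level counts do not show which start was used, and a match is a stretch of letters, not a measured binding site.

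FGF2, basic FGF, is a mitogen of mesenchymal cells and like FGF1 leaves the cell without a classical signal. It lies at chr4:122826708-122898236 on the plus strand (ENSG00000138685). FGF2 was at 92.8, 93.7 and 94.3 CPM in siNT, 85.9, 82.1 and 80.6 CPM in siYAP and 96.0, 95.0 and 94.8 CPM in siTAZ. The siYAP libraries lay below all others, by a small margin, and those of siTAZ just above siNT. FGF2 fell 1.13-fold after YAP knockdown (log2 fold change -0.18, SE 0.05, adjusted p = 0.00141). The scaling of libraries bears on so small a change. It set the effective library size above the counts in genes in siYAP and below them in siNT. Under the alternatives other than leaving out a library, the log2 fold change was -0.20 to -0.14. After TAZ knockdown the log2 fold change of FGF2 was 0.03 (SE 0.05, 95% interval -0.07 to 0.12, adjusted p = 0.737). NUDT6, the antisense partner of FGF2, shares 804 exon bases with it, 11.9% of FGF2's exons, and since no source names the strand setting, reads there cannot be assigned to either gene. NUDT6 had 34 to 79 counts per library, against 1363 to 1774 for FGF2.

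FGF7, keratinocyte growth factor, is made by mesenchymal cells and acts on the epithelial form of FGFR2. It lies at chr15:49423096-49488775 on the plus strand (ENSG00000140285). FGF7 had few reads: 19, 11 and 12 counts in siNT, 19, 28 and 17 in siYAP and 8, 5 and 2 in siTAZ. The siTAZ libraries were the lowest and did not overlap either group, whereas siYAP and siNT overlapped. In CPM the means were 0.811 ± 0.269 in siNT, 1.16 ± 0.262 in siYAP and 0.274 ± 0.159 in siTAZ (SD, n = 3). FGF7 fell 2.88-fold after TAZ knockdown (log2 fold change -1.53, SE 0.58, adjusted p = 0.0323). After YAP knockdown its log2 fold change was 0.52 (SE 0.47, 95% interval -0.42 to 1.46, adjusted p = 0.330). The TAZ call was lost without siNT replicate 1 (log2 fold change -1.23, adjusted p = 0.178), siTAZ replicate 2 (-1.52, adjusted p = 0.0783) or siTAZ replicate 3 (-1.18, adjusted p = 0.156), and without the filter on low counts (adjusted p = 0.0521). The count is also uncertain because GENCODE 29 lists 8 FGF7 pseudogenes, which are near copies and have no line in the tables, and because FAM227B spans FGF7 on the opposite strand, with no shared exon base.

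FGFR1, the main receptor of mesenchymal cells, was the one member that rose after YAP knockdown. It lies at chr8:38400215-38468834 on the minus strand (ENSG00000077782). Its level was 297, 288 and 288 CPM in siNT, 436, 452 and 440 CPM in siYAP and 284, 291 and 281 CPM in siTAZ. The siYAP libraries stood above all others, and siNT and siTAZ overlapped. FGFR1 rose 1.52-fold after YAP knockdown (log2 fold change 0.60, SE 0.03, adjusted p = 8.83e-25). After TAZ knockdown its log2 fold change was -0.03 (SE 0.03, 95% interval -0.10 to 0.04, adjusted p = 0.567), so a change of the size seen in siYAP lay outside that interval. LETM2 and the antisense gene ENSG00000255201 overlap FGFR1 on the opposite strand and share 1.00% and 1.13% of its exon bases. LETM2 had 66 to 169 counts per library, against 4873 to 8660 for FGFR1. The promoter windows of FGFR1 are not reported here, so whether they hold either motif is not stated.

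FGFR3, known for activating mutations in skeletal dysplasias and bladder cancer, moved the opposite way. It lies at chr4:1793293-1808872 on the plus strand (ENSG00000068078). FGFR3 was at 16.0, 13.6 and 11.6 CPM in siNT, 3.72, 4.59 and 3.43 CPM in siYAP and 14.7, 13.0 and 12.7 CPM in siTAZ. All siYAP libraries were below the lowest of the other groups, which overlapped each other. FGFR3 fell 3.48-fold after YAP knockdown (log2 fold change -1.80, SE 0.15, adjusted p = 1.45e-16). After TAZ knockdown the log2 fold change was -0.02 (SE 0.13, 95% interval -0.28 to 0.24, adjusted p = 0.919). GENCODE 29 lists 3 FGFR3 pseudogenes without a line in the tables, and its count is uncertain for that reason.

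FGFR4, best known as the hepatocyte receptor for FGF19 in the control of bile acid synthesis, was also lowest in siYAP. It lies at chr5:177086886-177098144 on the plus strand (ENSG00000160867). Its reads were few: 58, 67 and 59 counts in siNT, 12, 10 and 13 in siYAP and 25, 43 and 47 in siTAZ. The 3 groups did not overlap, with siTAZ in between and more spread than the others. In CPM the means were 3.54 ± 0.277 in siNT, 0.643 ± 0.123 in siYAP and 2.14 ± 0.703 in siTAZ (SD, n = 3). FGFR4 fell 5.48-fold after YAP knockdown (log2 fold change -2.46, SE 0.35, adjusted p = 6.26e-09). After TAZ knockdown it fell 1.66-fold (log2 fold change -0.73, SE 0.30, adjusted p = 0.0479), at the edge of the threshold. That call was lost without siNT replicate 1, 2 or 3 (adjusted p = 0.0894, 0.148 and 0.0772), without siTAZ replicate 1 (log2 fold change -0.48, adjusted p = 0.2495) or siTAZ replicate 2 (adjusted p = 0.0568), with DESeq2 (adjusted p = 0.0565), with upper-quartile scaling (adjusted p = 0.0542) and without the filter on low counts (adjusted p = 0.0656).

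The promoters of FGFR3 and FGFR4 are shown for comparison with FGF1, again with the TEAD core in capitals. These 3 members fell at least 2-fold after YAP knockdown. FGF2 and FGF5 fell by less, and their windows held neither motif. FGFR3 has 1 window (chr4:1793043-1793342), which is 86.3% G and C and held neither motif. FGFR4 start 1 (chr5:177086665-177086964) held 1 TEAD core, on the other strand, close to the annotated start, and is shown for it. FGFR4 start 2 held neither motif.
FGFR3 start 1: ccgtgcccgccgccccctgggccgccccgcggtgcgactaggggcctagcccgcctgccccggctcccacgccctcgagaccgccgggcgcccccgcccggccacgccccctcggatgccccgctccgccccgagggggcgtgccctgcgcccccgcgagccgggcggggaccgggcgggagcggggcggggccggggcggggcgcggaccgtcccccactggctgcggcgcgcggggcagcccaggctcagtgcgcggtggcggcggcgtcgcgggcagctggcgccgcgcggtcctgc
FGFR4 start 1: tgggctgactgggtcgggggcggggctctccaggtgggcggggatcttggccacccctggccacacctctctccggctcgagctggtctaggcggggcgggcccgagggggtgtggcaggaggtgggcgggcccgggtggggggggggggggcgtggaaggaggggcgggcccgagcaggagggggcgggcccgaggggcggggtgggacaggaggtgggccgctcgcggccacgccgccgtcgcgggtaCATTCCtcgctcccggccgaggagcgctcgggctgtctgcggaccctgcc

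FGFR2, whose epithelial splice form is the receptor of FGF7, had 0 counts in each of the 9 libraries. It lies at chr10:121478334-121598458 on the minus strand (ENSG00000066468). With 3 counts as the limit that a count of 0 allows, its level was at most 0.157 to 0.177 CPM, depending on the library. Such limits, like the counts above, cover counting error only.

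**Figure D2:**
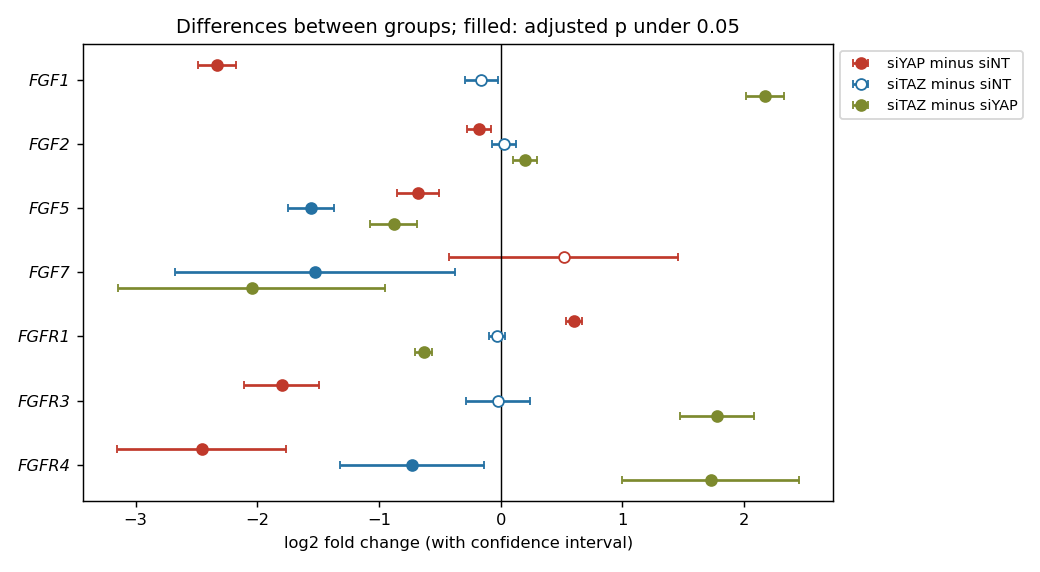
Log2 fold change of the 7 tested members on the horizontal axis, with 95% confidence intervals, for siYAP against siNT, siTAZ against siNT and siTAZ against siYAP. Filled points passed the test (adjusted p under 0.05). The intervals of siTAZ against siNT for FGF2, FGFR1 and FGFR3 include 0, and those of FGF7 and FGFR4 are the widest.

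Setting siTAZ directly against siYAP tests whether the knockdowns differed, and here all 7 tested members were called, 4 higher and 3 lower in siTAZ (66.2% of all tested genes were called, 33.0% higher and 33.2% lower). The libraries of both groups did not overlap for any of the 7 (68.2% of tested genes). FGF1 was 4.51-fold higher in siTAZ (log2 difference 2.17, SE 0.08, adjusted p = 3.01e-34), FGFR3 3.43-fold higher (1.78, SE 0.15, adjusted p = 2.41e-16) and FGFR4 3.31-fold higher (1.73, SE 0.36, adjusted p = 3.09e-05). FGF2 was 1.15-fold higher (0.20, SE 0.05, adjusted p = 0.000281). FGF7 was 4.13-fold lower in siTAZ than in siYAP (log2 difference -2.05, SE 0.55, adjusted p = 0.000861), and FGFR1 1.55-fold lower (-0.63, SE 0.03, adjusted p = 9.34e-26). These calls, and that of FGF5, held under every alternative that was run. FGF1, FGF2, FGFR3 and FGFR4 were thus lower in siYAP, and FGF5, FGF7 and FGFR1 lower in siTAZ.

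Levels of different genes can be set side by side only per length, here as RPKM over the union of each gene's exons. In siNT the order was FGFR1 at 21.0 ± 0.351 RPKM, FGF2 at 13.8 ± 0.105, FGF1 at 12.2 ± 0.399, FGF5 at 6.90 ± 0.535, FGFR3 at 2.83 ± 0.451, FGFR4 at 0.733 ± 0.0574 and FGF7 at 0.122 ± 0.0404 (SD, n = 3). The libraries' spread separates these neighbours, but the length chosen does not leave FGF1 and FGF2 in 1 order: per length of the principal transcript, FGF1 was at 15.8 RPKM and FGF2 at 14.1. FGFR1 was the highest member with either length, at 49.3 RPKM with the latter. In siYAP the order changed, with FGF5 at 4.31 RPKM above FGF1 at 2.43 RPKM, and in siTAZ FGFR3 at 2.78 ± 0.222 RPKM and FGF5 at 2.34 ± 0.350 RPKM lay within their spread of each other.

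Among receptors, FGFR1 made up 85.5% ± 1.44 of the summed receptor RPKM in siNT, 97.1% ± 0.247 in siYAP and 86.5% ± 0.410 in siTAZ (SD, n = 3). The share of FGFR3 was 11.5% in siNT, 2.45% in siYAP and 11.7% in siTAZ, and that of FGFR4 was 2.98%, 0.405% and 1.86%. The summed receptor RPKM was 24.6 ± 0.778 in siNT, 32.9 ± 0.695 in siYAP and 23.8 ± 0.343 in siTAZ. Among ligands, FGF2 had the largest share in all 3 groups by union exon length, with 41.8% ± 0.656 in siNT, 63.9% ± 1.60 in siYAP and 51.4% ± 2.26 in siTAZ. By principal transcript length, FGF1 led in siNT with 40.5% to 36.0% for FGF2, and in siTAZ both had about the same share, 44.8% and 45.3%. FGF1's share by union exon length was 36.9% in siNT, 12.7% in siYAP and 39.9% in siTAZ. FGF5 held 20.9%, 22.5% and 8.54%, and FGF7 under 1% in each group. The summed ligand RPKM was 33.0 ± 0.627 in siNT, 19.1 ± 0.196 in siYAP and 27.4 ± 1.06 in siTAZ. These shares are of RNA and carry no test of their own.

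**Figure D3:**
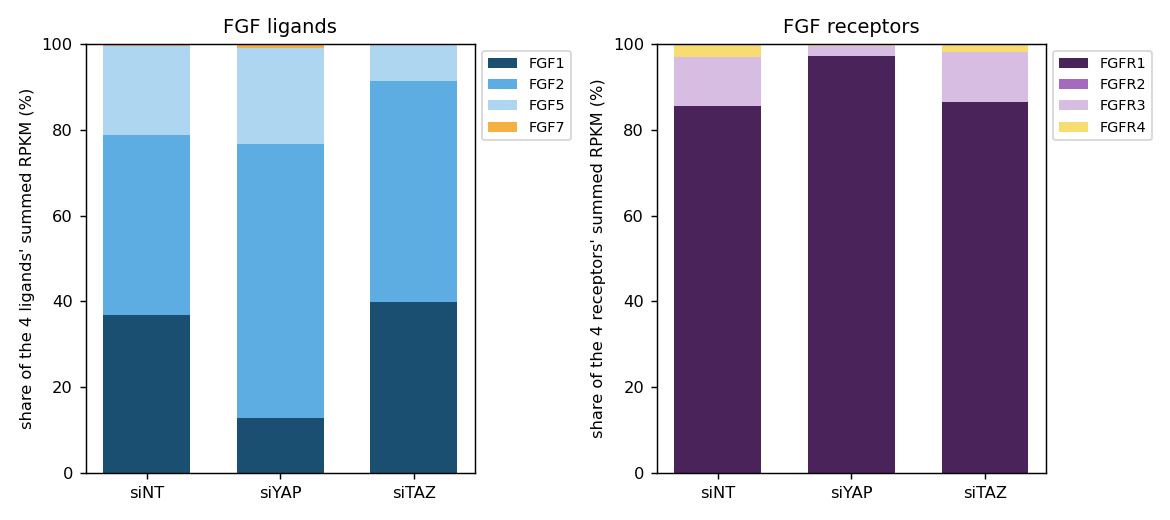
Share of each gene in the summed RPKM of the 4 ligands (left) and the 4 receptors (right), in percent on the vertical axis, as means of 3 libraries per group with union exon lengths. FGFR1 fills 97.1% of the receptor bar in siYAP against 85.5% in siNT, and FGF1 12.7% of the ligand bar in siYAP against 36.9% in siNT.

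For members of at least 3 average log2 CPM, the genes with the most similar course over the 9 libraries were sought by Pearson's r of log2 CPM among 10425 genes. The 9 libraries form 3 groups, so r mainly reflects the 3 group means and is given as a description. FGF1 was most like POLR2C, an RNA polymerase II subunit, and PARVA, parvin alpha of focal adhesions, both at r = 0.999, and 269 genes reached r over 0.99. FGFR1 was most like TRAF1, an adaptor of TNF receptors, and HECW2-AS1, both at r = 0.999, with 135 genes over 0.99. TRAF1 went from 11.5 CPM in siNT to 139 CPM in siYAP. FGFR3 was most like KBTBD6 (r = 0.996) and BMPR2, a BMP receptor (r = 0.995), with 28 genes over 0.99. FGF2 and FGF5 had fewer such genes, a number that also depends on how large a gene's group differences are beside its spread. MRPL42 (r = 0.995) and IBTK (r = 0.991) were the 2 genes over 0.99 for FGF2. SRGN, the proteoglycan serglycin (r = 0.9903), was the 1 gene over 0.99 for FGF5, followed by AOX1 (r = 0.989), which was at 133 CPM in siNT, 81.2 CPM in siYAP and 45.5 CPM in siTAZ.

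The other genes of the pathway were taken from lists by role. Counts of called genes in these lists stand beside the shares over all tested genes. These were 33.8% higher and 33.4% lower after YAP knockdown, and 16.4% and 18.2% after TAZ knockdown. Of 14 other FGF ligands, 5 had no read and 3 could be tested. FGF18, a ligand of cartilage and bone, rose 3.24-fold after YAP knockdown, from 0.633 ± 0.0893 to 2.06 ± 0.303 CPM (log2 fold change 1.70, SE 0.44, adjusted p = 0.000563), and no ligand of the list was called after TAZ knockdown by edgeR or DESeq2. At an unadjusted p under 0.05, 1 was higher after TAZ knockdown: FGF17, named after its values were seen, was at 0.939 ± 0.315 CPM in siNT and 1.78 ± 0.401 CPM in siTAZ (log2 fold change 0.92, SE 0.39, adjusted p = 0.0616). Their median log2 fold change was 0.67 after YAP knockdown, and 0.26 to 0.97 with 1 library left out. After TAZ knockdown it was -0.23, and its sign was not stable: it was -0.69 without siNT replicate 1, 0.17 without siNT replicate 3 and 0.23 without siTAZ replicate 1.

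Co-receptors, the decoy receptor and ligand carriers were 11 genes with 6 tested, of which 1 rose and 3 fell after YAP knockdown and 1 fell after TAZ knockdown. The list's median has no stable sign after YAP knockdown: it was -0.35 over all libraries, -0.83 with the compared groups alone, -0.01 without siNT replicate 1, 0.43 without siYAP replicate 2 and 0.12 without siTAZ replicate 1, 2 or 3. Over all libraries the median lay midway between FGFRL1 at -0.82 and NCAM1 at 0.13, a gene with 3 to 18 counts per library. The median can therefore move with which genes of so few counts pass the filter, without a change in the others. After TAZ knockdown it was -0.20, and -0.56 without siNT replicate 2. FGFRL1, a receptor without a kinase domain, fell 1.76-fold after YAP knockdown, from 49.8 ± 0.752 to 28.2 ± 1.61 CPM (log2 fold change -0.82, SE 0.07, adjusted p = 4.62e-16). FLRT2, a membrane protein that binds FGF receptors, was at 32.5 ± 1.34 CPM in siNT, 17.4 ± 1.38 CPM in siYAP and 11.3 ± 0.870 CPM in siTAZ. It fell after both knockdowns, by 0.90 and by 1.52 on the log2 scale (adjusted p = 6.99e-13 and 2.22e-20). ANOS1, a heparan sulfate binding protein that modulates FGFR1, fell by 1.06 after YAP knockdown (adjusted p = 5.17e-09). FLRT3 rose by 0.75 (adjusted p = 0.0346), a call that was lost without siNT replicate 2 or 3, siYAP replicate 1 or 2, or the filter (adjusted p = 0.145, 0.0866, 0.141, 0.0530 and 0.0649).

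Heparan sulfate, which FGFs need for stable receptor binding, is built and edited by 18 listed enzymes, of which 13 were tested. After YAP knockdown 5 rose and 5 fell (median 0.11, or 0.34 without the filter), and after TAZ knockdown 4 rose and 7 fell (median -0.19, or -0.10 without the filter and -0.25 to -0.13 with 1 library left out). The 6-O-endosulfatases SULF1 and SULF2, which remove 6-O-sulfates at the cell surface, rose in both. SULF2 was at 10.6 ± 0.455 CPM in siNT, 40.0 ± 4.48 CPM in siYAP and 21.0 ± 0.936 CPM in siTAZ (log2 fold changes 1.91, SE 0.10, and 0.98, SE 0.10, adjusted p = 7.61e-27 and 2.47e-12). SULF1 was at 17.5 ± 2.12, 42.4 ± 3.21 and 25.5 ± 1.69 CPM (1.28, SE 0.09, and 0.54, SE 0.09, adjusted p = 2.18e-20 and 1.90e-06). HS6ST1, which adds 6-O-sulfates, fell 2.27-fold after YAP knockdown, from 100.6 ± 8.24 to 44.2 ± 2.60 CPM (adjusted p = 1.98e-27), and by 0.19 on the log2 scale after TAZ knockdown (adjusted p = 0.00379). NDST1, which starts sulfation of the chain, fell by 0.91 and by 0.53 on the log2 scale (adjusted p = 9.71e-31 and 2.45e-18). NDST2 went the other way and rose by 0.59 and by 0.31 (adjusted p = 1.06e-08 and 0.00298). The chain polymerase EXT1 fell by 0.39 and 0.52. EXT2, its partner, rose by 0.31 after YAP knockdown and fell by 0.26 after TAZ knockdown, and EXTL3, which starts the chain, rose by 0.50 and fell by 0.36.

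All 24 receptor-proximal adaptors and effectors were tested. After YAP knockdown 9 rose and 10 fell, and after TAZ knockdown 4 rose and 8 fell, with medians of -0.00 (-0.03 to 0.03 with 1 library left out) and -0.02 (-0.05 to -0.02). Upper-quartile scaling gave 8 higher and 7 lower after TAZ knockdown. FRS2, the docking protein of FGF receptors, was at 47.6 ± 1.90 CPM in siNT, 39.4 ± 2.53 CPM in siYAP and 58.2 ± 4.24 CPM in siTAZ. It fell after YAP knockdown (log2 fold change -0.27, SE 0.07, adjusted p = 0.000441) and rose after TAZ knockdown (0.29, SE 0.07, adjusted p = 0.000299). NRAS, a RAS GTPase, fell to a like degree in both, by 0.62 and by 0.63 on the log2 scale. PIK3R1, the regulatory subunit of PI3 kinase, rose 2.39-fold after YAP knockdown (log2 fold change 1.26, SE 0.07, adjusted p = 1.58e-25). The phosphatase PTPN11 and the adaptor GRB2 fell by 0.44 and by 0.40 after YAP knockdown.

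Among 18 feedback inhibitors and transcriptional targets of ERK, 14 rose and 3 fell after YAP knockdown, with a median log2 fold change of 1.11, beside 33.8% of all tested genes called higher and a median of 0.02. The list was chosen with earlier results of these data known, so its excess over that share is not independent of them. After TAZ knockdown 6 rose and 4 fell, with a median of 0.07 (0.03 to 0.10 with 1 library left out). PHLDA1, a pleckstrin-domain protein induced by growth factors, rose 3.59-fold after YAP knockdown, from 81.9 ± 1.85 to 293.9 ± 5.29 CPM (log2 fold change 1.84, SE 0.04, adjusted p = 2.89e-45). FOSL1, an AP-1 subunit, rose 2.48-fold, from 195.7 ± 2.75 to 485.8 ± 21.1 CPM (adjusted p = 1.35e-40), and SPRED2, an inhibitor of RAF activation, 2.63-fold (adjusted p = 6.60e-32). The Sprouty genes SPRY2 and SPRY4 and the ERK phosphatase DUSP5 rose after both knockdowns. SPRY2 rose by 1.59 and by 0.32 on the log2 scale, SPRY4 by 1.00 and 0.44, and DUSP5 by 2.02 and 0.37. IL17RD, also named SEF, an inhibitor of FGF signalling, went the other way after YAP knockdown and fell 7.25-fold, from 6.13 ± 0.992 to 0.840 ± 0.0446 CPM (log2 fold change -2.86, SE 0.26, adjusted p = 2.00e-15). The immediate early gene EGR1 fell 3.84-fold (log2 fold change -1.94, SE 0.16, adjusted p = 1.49e-05). SPRED1 and SPRED3 rose after YAP knockdown, by 0.38 and 2.25, and fell after TAZ knockdown, by 0.50 and 0.41. The TAZ call of SPRED3 was lost without siNT replicate 1 or 3 or siTAZ replicate 1 (adjusted p = 0.0616, 0.142 and 0.0982), and without siNT replicate 1 the list had 2 lower genes in place of 4. CCND1, cyclin D1, rose by 0.44 and fell by 0.39. ERK activity itself was not measured.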

How the data were processed

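RNA of 9 LX2 cultures (3 groups of 3) was sequenced. The authors deposited raw counts of reads per gene for each library. The submitters' processing notes name HTSeq, STAR 2.5.0c, Trim Galore, Picard and SAMtools, and the mouse build mm10, although the deposited tables carry human Ensembl identifiers. Build, annotation and strand setting of the counting are therefore not given in the sources used here, and gene positions and lengths come from GENCODE 29 (GRCh38). Reads outside genes were 4.73% to 7.49% and ambiguous reads 6.33% to 6.91% of the reads in genes, outside genes and ambiguous together. Both were left out. The share outside genes differed by group, at 4.73% to 5.13% in siNT, 5.53% to 5.63% in siTAZ and 6.01% to 7.49% in siYAP.

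Identifiers were named from a gene name table (36366) and GENCODE (219). Counts were filtered with filterByExpr (minimum count 10), TMM-scaled and tested with edgeR 4.0.16 (glmQLFit, robust, and glmQLFTest, two-sided) in R 4.3.3 over all 9 libraries, with Benjamini-Hochberg adjustment over 15560 genes. A run of the procedure on simulated counts changed far fewer genes than were called here. It therefore cannot show how the scaling and the test behave in these data. CPM use TMM-scaled library sizes, and SE is the fold change divided by the root of the F statistic. DESeq2 1.42.0, other scalings, no filter, the compared groups alone, a replicate block and leaving out each library were alternatives. Libraries of 1 group differed by more than sampling noise.

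Named genes are all members, the targeted genes, overlapping genes, up to 3 called genes per direction with the smallest p from each list, and the 2 genes most correlated with each member. Values of those genes in the other comparison are given beside them. Members and lists were chosen with earlier results of these data known. The principal transcript lengths (APPRIS) were added after the data were seen.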

Additional observations from a re-analysis of the deposited data

How the results depend on the processing

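Of the members' results under the alternatives, 295 kept their direction and side of the threshold, 12 lost the call, 5 gained it and 3 changed sign, and these 20 changes were all in siTAZ against siNT. The causes were not tested. FGFR3, not called there, ranged from -0.1317 to 0.1005 with a library left out, and changed sign to 0.1005 without siNT replicate 1, 0.003157 without siTAZ replicate 2 and 0.01656 without siTAZ replicate 3. The number of members called was 1 without the filter on low counts, and 1 to 4 with a library left out. RLE scaling and the compared groups alone called FGF1 (adjusted p = 0.0493 and 0.0378). Same-numbered libraries showed no shared deviation (r from -0.0099 to 0.0545, against -0.0405 to 0.0356 for others). The sources do not say whether they were grown or transfected together, and these values cannot show it. With the replicate block 10434 genes were called for YAP and 5413 for TAZ, 4 members among the latter, as FGF1 was called (adjusted p = 0.0468). Upper-quartile scaling gave 8 higher adaptors after TAZ knockdown, and 2865 genes higher and 2616 lower (2559 and 2832 with TMM). No filter left 0 higher co-receptors after YAP knockdown.

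With 1 library left out, the counts after YAP knockdown were 0 to 1 for higher homologous factors (0 without siNT replicate 1), for higher co-receptors and for higher splicing regulators (0 without siYAP replicate 2). After TAZ knockdown they were 2 to 4 for lower ERK targets (2 without siNT replicate 1), 0 to 1 for higher other ligands and 3 to 5 for lower splicing regulators (3 without siNT replicate 3 or siTAZ replicate 1). For siTAZ against siYAP they were 0 to 1 for higher homologous factors and 1 to 3 for lower co-receptors (1 without siTAZ replicate 2).

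By principal transcript length the siNT levels were 15.8 RPKM for FGF1, 14.1 for FGF2, 9.09 for FGF5, 49.3 for FGFR1 and 1.13 for FGFR4. The shares in siNT, siYAP and siTAZ were then 40.5%, 14.7% and 44.8% for FGF1, 36.0%, 57.9% and 45.3% for FGF2, and 92.0%, 98.5% and 92.7% for FGFR1. FGFR2, without a read, could not be tested at this depth. Medians of the pathway lists that moved are given beside them.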

Other observations

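The FGF homologous factors stay inside the cell, do not signal through FGF receptors and bind voltage-gated sodium channels. Of 4 such genes 3 were tested. FGF11 rose after YAP knockdown, from 3.11 ± 0.468 to 4.85 ± 0.326 CPM (log2 fold change 0.64, SE 0.22, adjusted p = 0.00948), a call that was lost without siNT replicate 1 (adjusted p = 0.0652). FGF14 fell, from 0.963 ± 0.148 to 0.258 ± 0.0976 CPM (log2 fold change -1.88, SE 0.57, adjusted p = 0.00281). Neither passed the test after TAZ knockdown, where none of the 3 did, at an unadjusted p under 0.05 or with DESeq2 either, and their median was -0.08 (-0.20 to 0.01 with 1 library left out).

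Of 12 proteins known to regulate the choice between the epithelial IIIb and mesenchymal IIIc exons of FGFR2, 11 were tested, although FGFR2 itself had no read. After YAP knockdown 9 fell and 1 rose, where 33.4% of all tested genes were called lower and 33.8% higher. Their median log2 fold change was -0.52, beside 0.02 over all tested genes. This list too was chosen with earlier results of these data known, so its excess of lower genes is not independent of them. PTBP1, a repressor of exon inclusion, fell from 449.2 ± 14.6 to 253.6 ± 4.79 CPM (log2 fold change -0.82, SE 0.04, adjusted p = 1.10e-30). HNRNPM fell by 0.80 and KHSRP by 0.72, and HNRNPF rose by 0.14, a call that was lost without siYAP replicate 2 (adjusted p = 0.0561). After TAZ knockdown 4 rose and 5 fell (3 without siNT replicate 3 or siTAZ replicate 1), with a median of -0.04 (-0.09 without siTAZ replicate 2 and 0.01 without siTAZ replicate 3). RBFOX2 rose by 0.32, TIA1 by 0.31 and HNRNPH1 by 0.17, and KHSRP and HNRNPF fell by 0.28 and HNRNPM by 0.17.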
